A study of Homo sapiens with 2 samples.

Results

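Genes for extracellular proteases, their inhibitors and the enzymes and chains of collagen were examined in S2-013 cells, a human pancreatic cancer line derived from SUIT-2, with and without a MEK inhibitor. A gene was included when its symbol in the platform annotation started with MMP, ADAM, TIMP, SERPIN, KLK, TMPRSS, PRSS, LOX, PLOD, P4HA or COL followed by a digit, or was PLAU, PLAUR or PLAT, and antisense symbols were left out. This gave 77 of 13763 named genes: 20 MMP, 29 ADAM, ADAMTS and ADAMTSL, 4 TIMP, 16 KLK, 6 LOX, 1 PRSS and 1 COL gene. No probe set was named for a SERPIN, TMPRSS, PLOD or P4HA gene, for PLAU, PLAUR or PLAT, or for MMP2, MMP3, MMP7 and MMP9, so these are not analysed here. The symbol rule also took genes that encode no active protease, among them the ADAMTSL genes, LOXHD1 and 8 transcribed pseudogenes.

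Both samples were S2-013 cells in which HOXB7, a homeobox transcription factor, had been knocked down and was then expressed again from a rescue plasmid. The treated sample received a MEK inhibitor and the control did not, and the labels name neither the compound nor its dose or time of exposure. The design text sets the aim as a search for genes and pathways downstream of HOXB7 and MEK. Knockdown and rescue are shared by both samples, so the comparison shows the inhibitor's contrast within rescued cells of 1 line and nothing about HOXB7 itself. Total RNA was hybridised to Affymetrix whole-transcript arrays, with 1 array per condition. There is therefore no replicate error, no test was run, and every difference below compares 2 arrays rather than 2 conditions. In such bulk RNA, fewer expressing cells and less RNA per cell cannot be told apart.

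Matrix metalloproteinases (MMPs) are zinc enzymes that are secreted or held at the cell membrane and cut collagens and other matrix proteins. Tissue inhibitors of metalloproteinases (TIMPs) block them, ADAM proteins release membrane-bound ligands and receptors, and lysyl oxidases cross-link collagen and elastin. Pancreatic cancers are known for a dense, collagen-rich stroma, and the gene for the interstitial collagenase MMP1 is a textbook target of AP-1 and ETS transcription factors, which act downstream of RAS, MEK and ERK.

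The deposited values are log2 signals, and HOXB7 read 5.84 without and 5.85 with the inhibitor. A gene was taken as above the floor when at least 1 array read 4.78 or more, which is the median over named genes of the mean signal, and 7164 genes passed. The floor is not a detection limit, and the deposited table holds no detection calls. Where a gene had several probe sets above the floor, their differences disagreed by a median of 0.12 over 577 pairs, and by less than 0.64 in 95% of them. Over the 309 brighter pairs, with both mean signals at least 6, these values were 0.09 and 0.40. These figures describe disagreement of probe sets within these arrays and do not cover variation between cultures. The 577 pairs came from 175 genes, so genes with many probe sets weigh more. Of the 6 epithelial marker genes named on the array all were above the floor. EPCAM read 10.46 without and 10.50 with the inhibitor, KRT18 11.58 and 11.29, KRT19 8.94 and 8.87, and KRT8 6.52 and 6.33. CLDN4 read 4.90 and 5.85, and KRT7 4.56 and 4.91, below the floor without the inhibitor. A second probe set of KRT18 read 7.54 and 6.88. Only 1 of 6 acinar, 1 of 4 fibroblast, 3 of 7 endothelial and 2 of 3 leukocyte markers reached it. Those that reached it were CTRC (4.66 without and 4.96 with the inhibitor), DES (5.92 and 5.38), ESAM (5.72 and 5.09), ENG (5.49 and 5.52), CLDN5 (5.30 and 5.24), CD68 (8.95 and 8.53) and TYROBP (4.85 and 4.46). The fibroblast markers DCN and LUM read at most 2.49 on either array, and the endothelial marker PECAM1 at most 2.53.

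Of the 77 genes, 32 were above the floor, 18 of them higher (56.3%) and 14 lower (43.8%) with the inhibitor, close to the 53.9% higher and 46.1% lower of all genes above the floor. The median difference of the 32, inhibitor minus no inhibitor, was 0.10 on the log2 scale, against 0.03 for all genes above the floor. MMP1 was the 1 gene of the 32 that was lower by at least 2-fold, against 1.05% of all genes above the floor, and 0 of 32 were higher by at least 2-fold, against 0.628%. At 1.5-fold, 3 were higher (LOX, LOXL2 and LOXL4) and 4 lower (MMP1, ADAM19, TIMP1 and KLK3), where all genes gave 4.62% and 3.60%. With 32 genes, 1 gene is 3.13%, so the 2-fold counts carry nothing about the group beyond MMP1. Of the 7 genes past 1.5-fold, ADAM19 and KLK3 ended below the floor.

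**Figure D1:**
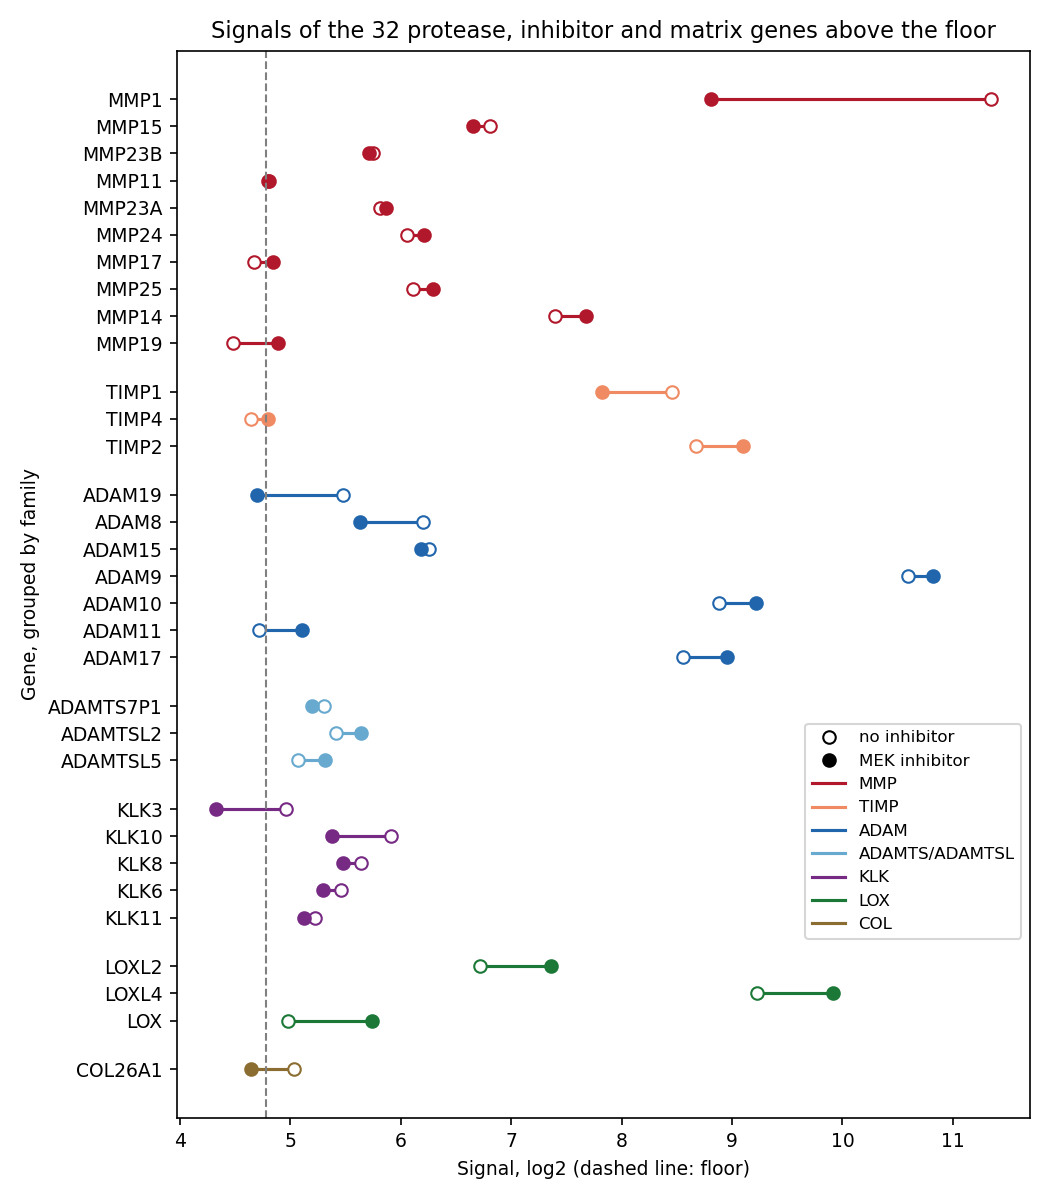
Log2 signal (horizontal axis) of each of the 32 genes above the floor, grouped by family, without the inhibitor (open circles) and with it (filled circles), 1 array each; the dashed line is the floor of 4.78. MMP1 moved from 11.35 to 8.81, and the 3 LOX family genes all read higher with the inhibitor, as did 53.9% of all genes above the floor.

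MMP1, the interstitial collagenase that starts the cleavage of fibrillar collagens, read 11.35 without the inhibitor and 8.81 with it. The difference was -2.53, or 5.78-fold lower, and both values were far above the floor. Among the 7164 genes above the floor it was the lowest difference but for that of the transcription factor gene EGR1. Its only named probe set was 16743721, so no second probe set of MMP1 was available to compare. The 181 other genes whose mean signal lay within 0.5 of MMP1's (10.08) had a median difference of 0.00, and the differences ran from -1.39 to 0.91. The lowest of these belonged to IGFBP1, an insulin-like growth factor binding protein, which read 10.54 without and 9.15 with the inhibitor. Of the 181, 2 were lower by at least 2-fold and 0 higher, where all genes above the floor gave 1.05% and 0.628%.

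No other named MMP gene had a difference of this size, but none had a mean signal above 7.54, against 10.08 for MMP1. Of the 19 others named on the array 9 were above the floor, and their differences lay between -0.16 and 0.41 with a median of 0.16. The difference of MMP1 minus this median was -2.69 on the log2 scale, and -2.62 when all 19 were used. In the probe sets used, the 2 values of these 9 genes differed by less than the disagreement of 0.64 seen between probe sets. A second probe set of MMP24 had a difference of 0.78, past that limit. No direction is read from any of the 9 genes. In the 10 MMP genes below the floor, a decrease as large as that of MMP1 could hardly be read. The same holds for MMP11, MMP17 and MMP19, which lay close to the floor.

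Among membrane-anchored MMPs, MMP14, which activates the gelatinase MMP2 at the cell surface, read 7.40 without and 7.68 with the inhibitor. MMP15, of the same transmembrane type, read 6.81 and 6.65. MMP24 read 6.05 and 6.21. Its second probe set (16913077) read 4.27 and 5.05, a difference of 0.78 against 0.16 in the probe set used. The glycolipid-anchored MMP25 read 6.11 and 6.29, and its other probe sets had differences of 0.31 and -0.08. MMP17, also glycolipid-anchored, read 4.67 and 4.84.

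Of the remaining MMPs above the floor, the stromelysin MMP11 read 4.79 and 4.80, and MMP19 read 4.48 and 4.89, the highest difference of the MMP genes (0.41). MMP23B read 5.75 and 5.71, and MMP23A, a nearly identical duplicated pseudogene, 5.81 and 5.86. The probe sets of these copies may read each other's RNA. The 10 MMP genes below the floor never exceeded 3.31, and their differences lay between -0.51 (MMP16, which read 3.02 and 2.52) and 0.18.

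MMP1 lies in a cluster of 9 MMP genes on chromosome 11, in the order MMP7, MMP20, MMP27, MMP8, MMP10, MMP1, MMP3, MMP12 and MMP13. Besides MMP1, 6 of them were named on the array, and none was above the floor on either array. The other collagenases are MMP8, of neutrophils, which read 2.77 without and 2.88 with the inhibitor, and MMP13, which read 2.27 and 2.46. The stromelysin MMP10, the neighbour of MMP1, read 2.33 and 2.50, and the macrophage elastase MMP12 2.38 and 2.41. MMP20, the enamel protease, read 2.82 and 2.71, and MMP27 2.33 and 2.21. Their differences lay between -0.12 and 0.18, and at such low signals a lower level could hardly be read.

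**Figure D2:**
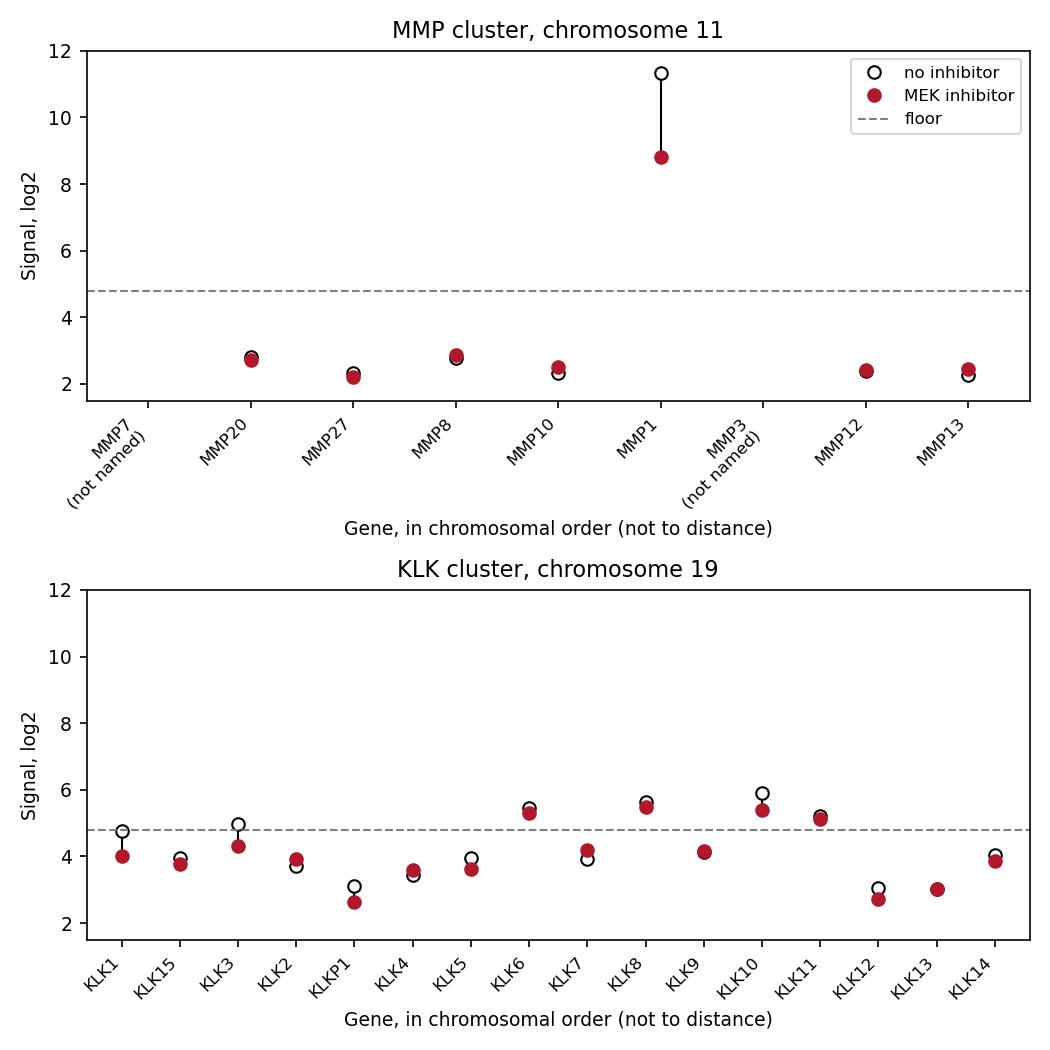
Log2 signal (vertical axis) of the MMP genes of the chromosome 11 cluster and of the KLK genes of the chromosome 19 cluster, in chromosomal order, without the inhibitor (open) and with it (filled), 1 array each; the dashed line is the floor. In the MMP cluster MMP1 alone is above the floor, and 5 of the 16 KLK genes are above it, all close to it.

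Of the TIMP genes, TIMP1 and TIMP2 had the highest signals. TIMP1, a secreted inhibitor of most soluble MMPs, read 8.46 without and 7.82 with the inhibitor, a difference of -0.64 or 1.56-fold lower. TIMP2, which also takes part in the activation of MMP2 by MMP14, read 8.67 and 9.10, a difference of 0.42 or 1.34-fold higher. For TIMP1, 2.96% of all genes above the floor had a lower difference, and for TIMP2, 9.77% had a higher one. The TIMP1 difference was at the 0.64 seen between probe sets of the same gene. That of TIMP2 was below this limit, but just above the 0.40 of the brighter pairs, and no direction is read from TIMP2. TIMP4 read 4.65 and 4.80, near the floor. TIMP3, the matrix-bound inhibitor, was below it with 3.80 and 3.27, a difference of -0.53, and its second probe set read -0.20. Besides MMP1, TIMP1 was the only gene of these families lower by 1.5-fold that stayed above the floor on both arrays.

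Promoter sequences bear on these genes because AP-1 sites read TGANTCA in their common form, and TIMP1 is known for the variant TGAGTAA. The RefSeq promoter table (GRCh38.p14) held 50 of the 77 genes, and the 250 bases before the most upstream start were searched on both strands for TGANTCA, for TGANTAA and for the ETS-type motif AGGAAG; matches of different motifs may overlap in part. MMP1 was not among the 50 genes, so its promoter was not searched. These motifs were chosen with the differences and sequences known. The 160 bases before the start are shown for TIMP1, which was lower with the inhibitor, for LOX and LOXL4, which were higher, and for MMP10, the dim neighbour of MMP1. Capitals mark motif matches, on either strand.
TIMP1 (chrX:47582276-47582435, plus strand): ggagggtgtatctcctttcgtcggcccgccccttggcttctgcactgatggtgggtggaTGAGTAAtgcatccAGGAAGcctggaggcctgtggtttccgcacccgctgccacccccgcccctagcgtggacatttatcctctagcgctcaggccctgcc
LOX (chr5:122078260-122078419, minus strand): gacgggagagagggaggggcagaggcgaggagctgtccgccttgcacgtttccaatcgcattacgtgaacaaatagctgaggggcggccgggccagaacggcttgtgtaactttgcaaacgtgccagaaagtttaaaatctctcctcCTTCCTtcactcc
LOXL4 (chr10:98268195-98268354, minus strand): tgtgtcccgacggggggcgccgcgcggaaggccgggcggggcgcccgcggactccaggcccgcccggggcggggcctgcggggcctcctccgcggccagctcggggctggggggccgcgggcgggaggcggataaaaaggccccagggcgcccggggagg
MMP10 (chr11:102780629-102780788, minus strand): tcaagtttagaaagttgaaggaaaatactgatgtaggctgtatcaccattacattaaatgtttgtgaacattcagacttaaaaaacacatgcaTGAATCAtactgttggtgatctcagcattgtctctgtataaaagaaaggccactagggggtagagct

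In TIMP1 the letters TGAGTAA started 101 bases before the start and AGGAAG 87 bases before it. In MMP10 the letters TGAATCA started 67 bases before the start, in a gene whose signal stayed at 2.33 and 2.50. TGANTCA was found in 2 of the 50 promoters (MMP10 and MMP20) and in 6.57% of the 27305 promoters of the table. TGANTAA was found in 7 of 50 and in 8.63% of all, and AGGAAG in 14 of 50 and in 28.6% of all. The 21 genes above the floor with a promoter do not include MMP1. Among them TIMP1 was the 1 gene with TGANTAA, 0 of 21 held TGANTCA, and 8 of 21 held AGGAAG. Among the 8 is LOX, which was higher with the inhibitor and has the reverse complement of AGGAAG starting 13 bases before the start. A match describes letters in this window and is not evidence of a bound site.

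The 3 lysyl oxidase genes above the floor all read higher with the inhibitor, each by at least 1.5-fold. Among all genes above the floor 53.9% were higher, and 4.62% by at least 1.5-fold. The median difference of the 3 was 0.69, against 0.03 for all genes. LOX, the founding enzyme that cross-links collagen and elastin, read 4.98 without and 5.74 with the inhibitor, 1.70-fold higher. LOXL4 read 9.23 and 9.92, 1.61-fold higher. LOXL2, which acts on collagen IV of basement membranes, read 6.72 and 7.36, 1.56-fold higher. Each of these differences (0.76, 0.69 and 0.64) was at or above the 95% limit of 0.64 for probe sets of the same gene, LOXL2 just so. Of all genes above the floor, 2.04% had a higher difference than LOX, 2.75% than LOXL4 and 3.56% than LOXL2. The 3 symbols below the floor did not follow: LOXL1 read 4.66 and 4.48, LOXL3 4.33 and 4.38, and LOXHD1, which encodes no oxidase, 4.24 and 4.35.

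Collagen genes themselves could hardly be read. COL26A1, a collagen of testis and ovary, was the only collagen chain named on the array. It read 5.03 without the inhibitor, above the floor, and 4.64 with it, below the floor. In a list of other genes for collagen folding and secretion, 9 of 10 named genes were above the floor. Of these, 6 were higher and 3 lower, against 53.9% and 46.1% of all genes above the floor. By 1.5-fold 0 differed, against 4.62% higher and 3.60% lower of all genes. The median of the 9 was 0.09, against 0.03. The prolyl hydroxylase gene P3H1 read 5.96 and 6.49, a difference of 0.53. The retrieval receptor gene KDELR3 read 5.36 and 5.81, a difference of 0.45, and the coat protein gene SEC23A 7.08 and 7.38.

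Of the 7 ADAM genes above the floor 4 read higher and 3 lower, close to the 53.9% and 46.1% of all genes above the floor. Only the difference of ADAM19 was larger than the 0.64 seen between probe sets of the same gene. ADAM17, the sheddase of TNF and of EGF receptor ligands, read 8.55 without and 8.96 with the inhibitor, a difference of 0.40. ADAM10, the sheddase of Notch receptors and E-cadherin, read 8.88 and 9.22, a difference of 0.34. ADAM9 read 10.60 and 10.82, a difference of 0.22. All 3 differences are below that limit, that of ADAM17 at the 0.40 of the brighter pairs, and no direction is read from them.

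ADAM19, a membrane metalloprotease known to process neuregulin, read 5.47 without and 4.70 with the inhibitor, a difference of -0.77 or 1.71-fold lower. It was the lowest difference of the 32 genes after MMP1, and it ended below the floor. ADAM8, a metalloprotease of leukocytes and of invasive tumour cells, read 6.20 and 5.63, a difference of -0.57, below the probe set limit, and stayed above the floor. Of all genes above the floor, 1.91% had a lower difference than ADAM19 and 3.80% than ADAM8. ADAM15 read 6.25 and 6.18, and ADAM11, which has no protease activity, 4.72 and 5.10. The median of the 7 ADAM genes above the floor was 0.22, against 0.03 for all genes above it. The 16 below the floor had differences between -0.32 and 0.44, 8 higher and 8 lower. Of all 6599 named genes below the floor, 3133 were higher and 3456 lower. No ADAMTS protease gene was named on the array. The protease-like ADAMTSL2 read 5.42 and 5.64, ADAMTSL5 5.07 and 5.32, and the pseudogene ADAMTS7P1 5.31 and 5.19.

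Kallikrein-related peptidases are secreted serine proteases encoded side by side on chromosome 19. All 5 KLK genes above the floor read lower with the inhibitor, with a median difference of -0.17, where 46.1% of all genes above the floor read lower. All 5 signals were close to the floor, and all but KLK3 differed by less than the 0.64 between probe sets, so no direction is read from those 4. KLK10 read 5.91 without and 5.38 with the inhibitor, a difference of -0.53. KLK3, the gene of prostate-specific antigen, read 4.96 and 4.33, a difference of -0.64, at that limit, that ended below the floor. KLK8 (5.64 and 5.48), KLK6 (5.45 and 5.30) and KLK11 (5.22 and 5.13) differed by at most 0.17 in size. Of the 11 below the floor 7 were lower and 4 higher, where all 6599 named genes below it gave 3456 lower and 3133 higher. KLK1, the tissue kallikrein of the pancreas, had the lowest difference of the 11 (-0.75). It lay just under the floor at 4.75 without the inhibitor. PRSS59P, a trypsinogen pseudogene, read 2.48 and 2.33.

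**Figure D3:**
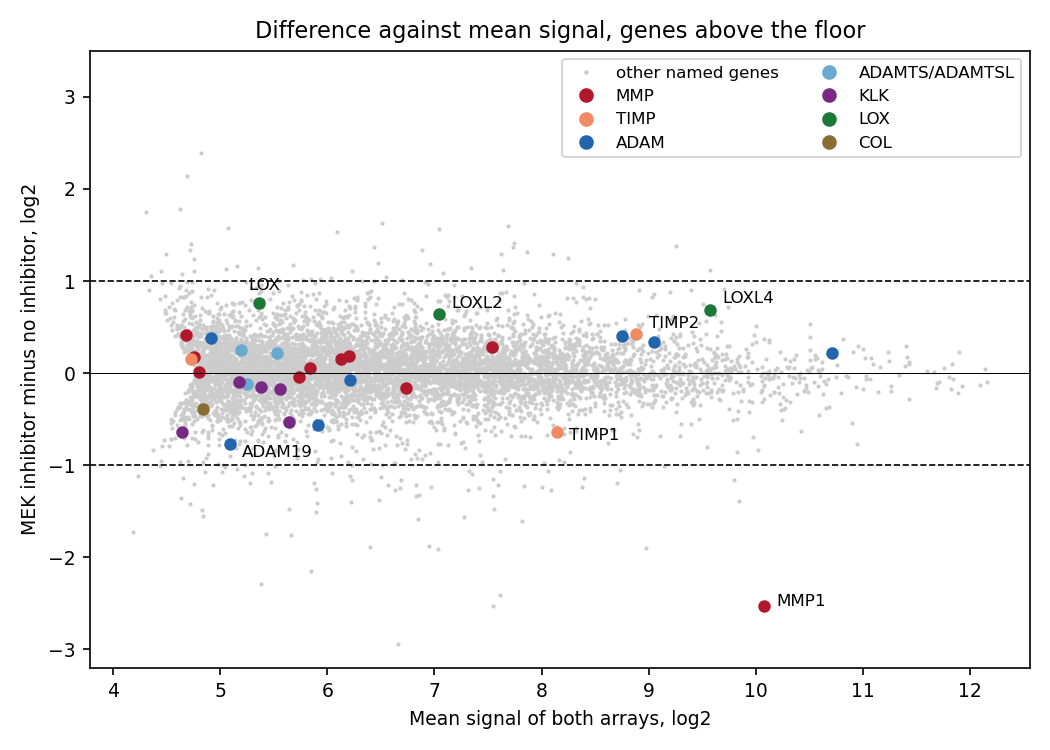
Difference, MEK inhibitor minus no inhibitor on the log2 scale (vertical axis), against the mean log2 signal of both arrays (horizontal axis) for the 7164 genes above the floor (grey) and the 32 protease, inhibitor and matrix genes (coloured by family); dashed lines mark 2-fold. MMP1 lies at a mean of 10.08 and a difference of -2.53, apart from the other coloured points, which lie between -0.77 and 0.76.

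Extracellular proteases outside these families were taken from a list, of which 18 of 27 named genes were above the floor. Of the 18, 12 were higher and 6 lower, against 53.9% and 46.1% of all genes above the floor. Their median difference was 0.12, against 0.03. Past 2-fold were DPP4, a cell surface dipeptidyl peptidase, which read 6.03 without and 7.06 with the inhibitor (2.06-fold higher), and ANPEP, an aminopeptidase of the same kind of membrane location, which read 7.86 and 6.79 (2.09-fold lower). By 2-fold, 0.628% of all genes above the floor were higher and 1.05% lower. The proprotein convertase gene PCSK5 read 6.65 and 7.19, a difference of 0.55, and the endothelin-converting enzyme gene ECE1 8.18 and 8.71. FURIN, the convertase that activates MMP14 and several ADAM proteins, read 7.13 and 6.99. The cathepsin genes of this list that were above the floor had differences from -0.29 to 0.32, among them CTSD (0.13), CTSB (-0.11) and CTSV (0.32).

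Of other protease inhibitors and modulators, 8 of 16 named genes were above the floor, 7 lower and 1 higher, with a median of -0.20. All genes above the floor were 46.1% lower and 53.9% higher, with a median of 0.03. CST4, a secreted cystatin that blocks cysteine proteases, read 7.52 without and 6.20 with the inhibitor, 2.50-fold lower. The other cystatins had smaller differences: CSTB read 10.14 and 9.72 (-0.42), CST3 8.05 and 7.68 (-0.37), CST6 9.12 and 8.96 and CST2 6.24 and 6.13. The elastase inhibitor gene SLPI read 9.20 and 8.96. The 1 higher gene was TFPI, an inhibitor of the tissue factor pathway, which read 5.34 and 5.96, 1.54-fold higher. BSG, which induces MMPs in neighbouring cells, read 10.61 and 10.58.

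A list of AP-1 and ETS factors, the families known to act on MMP1, also held EGR1, which belongs to neither family. Of the 18 genes of this list above the floor, 12 were lower and 6 higher. Of all genes above the floor, 46.1% were lower and 53.9% higher. The median of the 18 was -0.22, against 0.03. By at least 2-fold 4 of the 18 were lower (EGR1 and 3 ETS factors) and 1 higher, against 1.05% and 0.628% of all genes. The 3 ETS factors of the PEA3 group were lower by 2.93-fold to 3.36-fold: ETV4 read 6.30 without and 4.55 with the inhibitor, ETV1 5.05 and 3.32, and ETV5 5.61 and 4.06. All 3 ended below the floor, so the size of these folds is uncertain. EGR1, listed with them as an early growth response factor, read 8.13 and 5.19, a difference of -2.94, and its second probe set read -1.19. ETS1 (8.76 and 8.90) and ETS2 (8.49 and 8.46) had differences of 0.14 and -0.03.

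The AP-1 subunits were mixed. FOSL1 read 10.12 without and 9.81 with the inhibitor, JUNB 7.62 and 7.14, FOS 5.56 and 5.06, and FOSB 5.33 and 4.72. JUND read 6.19 and 7.21, a difference of 1.02, JUN 8.68 and 9.31, and FOSL2 6.69 and 7.18. The second probe set of FOS read -0.91 against -0.50 in the one used, and that of FOSB -0.02 against -0.60. In the list of ERK feedback and target genes all 15 above the floor were lower, 6 by at least 2-fold, with a median of -0.67, where 46.1% of all genes above the floor were lower and 1.05% lower by 2-fold. Their differences ran from -2.15 (SPRY4) to -0.05 (EREG). The part of these factors in the MMP1 difference was not tested.

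**Figure D4:**
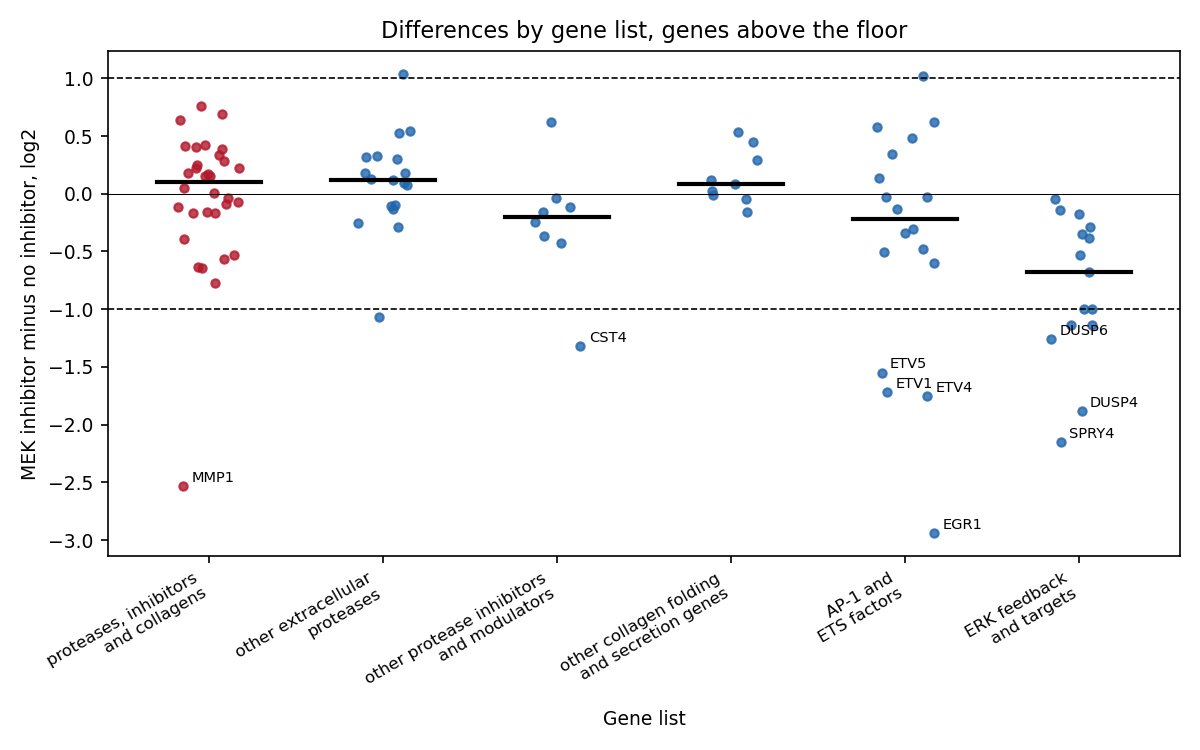
Difference, MEK inhibitor minus no inhibitor on the log2 scale (vertical axis), of the 32 protease, inhibitor and matrix genes (red) and of 5 lists of related genes (blue), all above the floor; each point is a gene, horizontal bars are medians, dashed lines mark 2-fold, and genes with the largest differences are named. The red points have a median of 0.10 with MMP1 at -2.53, and the ERK feedback and target genes have a median of -0.67.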

How the data were processed

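The authors deposited 1 table of log2 values, 53617 probe sets by 2 arrays; the log2 scale is inferred from the values (1.16 to 13.38), and every fold assumes it. Values came from Affymetrix Expression Console 1.3, per the submitters' processing notes; how background was corrected and arrays normalized is not given in the sources used here. Medians of the arrays were 3.46 with and 3.49 without the inhibitor, so values were used as deposited. Such scaling would remove a difference in total RNA output, and array summaries compress large folds. The number of arrays limits the precision.

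Probe sets with 1 gene symbol (16098; none had several, and the rest are unnamed here) were used; 1287 small RNA probe sets were left out. Each gene took its probe set with the highest mean. Members above the floor are given with their values, the others by range or example. The members, lists, floor, thresholds and naming rule (members past 1.5-fold, up to 4 per family, up to 3 per context list) were chosen with earlier results of these data known. Genes were added to the text after their values were seen: IGFBP1, and several list members beyond the first 3 per list. Alternatives were other scalings, floors and fold thresholds, averaged probe sets and left-out members. Counting at 2-fold was tested on simulated data. Samples were grouped by their titles. Python 3.11.15, numpy 2.4.6, pandas 2.3.3, statsmodels 0.14.6 and matplotlib 3.10.9 were used.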

Additional observations from a re-analysis of the deposited data

How the results depend on the processing

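No paired analysis was possible because each condition has 1 array, and no array could be left out for the same reason. The MMP1 difference lay between -2.53 and -2.52 with and without the scalings. Floors and averaging of probe sets could not move it, since MMP1 has 1 named probe set. Its distance from the median of the other MMP genes lay between -2.69 and -2.59 over the scalings, floors and averaging. Both scalings, by the median difference and by a loess trend, moved members' medians and the MMP1 values by at most 0.0251. Without the floor the medians were 0.039 for ADAM, 0.38 for LOX and -0.19 for TIMP genes, the last with its sign turned by TIMP3. With a floor at the 75th percentile 10 members were left; 2 were lower by 1.5-fold (MMP1 and TIMP1) and 2 higher (LOXL2 and LOXL4; LOX, ADAM19 and KLK3 were no longer tested), the median of members was 0.31 and that of MMP genes -0.16, with 3 genes left, and 24 of all genes were higher by 2-fold. ADAMTS, LOX, KLK and TIMP genes then had too few members for a median. Averaging probe sets moved the KLK median to -0.35, since the floor then takes in KLK1. At 3-fold 6 of all genes were higher and 14 lower, and at 1.5-fold 331 and 258. Without MMP1, 0 members were lower by 2-fold. Values near the floor (LOX, ADAM19, KLK, MMP11, MMP17, MMP19, TIMP4, ADAM11, COL26A1) are the least certain.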

Other observations

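Matrix glycoproteins and proteoglycans, which the named proteases cut or bind, were read from a list with 17 of 35 named genes above the floor. Of the 17, 7 were higher and 10 lower, against 53.9% and 46.1% of all genes above the floor. Their median difference was -0.06, against 0.03. By at least 2-fold 2 were lower, against 1.05% of all genes. THBS2, a matricellular thrombospondin known to bind MMP2, read 7.17 without and 5.80 with the inhibitor, 2.59-fold lower. LTBP3, which holds latent TGF-beta in the matrix, ended at 6.16 with the inhibitor, 2.53-fold lower. TNC, the adhesion-modulating tenascin, read 5.16 and 4.42, a difference of -0.74 that ended below the floor. THBS1, the thrombospondin that activates latent TGF-beta, read 9.31 and 9.94, 1.55-fold higher. Its difference of 0.63 was just below the 0.64 seen between probe sets of the same gene.

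Of the matrix receptors 4 of 5 named genes were above the floor, 3 higher and 1 lower, with a median of 0.33. All genes above the floor were 53.9% higher and 46.1% lower, with a median of 0.03. The collagen-binding kinase receptor gene DDR1 read 6.95 without and 7.38 with the inhibitor, and its other probe sets with separate values read 0.53 and 0.52. LRP1, which takes up MMPs bound to inhibitors, read 4.74 and 5.27. CD44, the hyaluronan receptor, read 9.08 and 8.90.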
